A study of Mus musculus with 23 samples.

Results

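Collagen VI was described in mouse brain through the mRNAs of its 3 classical chains, Col6a1, Col6a2 and Col6a3. The 3 genes were picked by name from a table of 18848 genes because Col6a1 had come out higher in mutant than in wild-type mice under DCS, so that contrast is given here as a description with no test. All 3 were measured, and all 3 were among the 17256 genes that entered the tests because their mean reached 10. The series holds 23 RNA-seq libraries of polyadenylated brain RNA from C57BL/6J mice, all male and aged 17 days after birth (P17). Mice were wild-type (WT) or heterozygous (HT) for a mutant Grin2b allele, which the series title names as C456Y. Grin2b is the gene for GluN2B, one of the subunits of NMDA receptors, the glutamate-gated channels at excitatory synapses. Each genotype received vehicle or DCS, which usually stands for D-cycloserine, a drug that acts on NMDA receptors through their glycine site. The labels give the abbreviation alone, with no dose or duration.

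Of WT mice there were 6 vehicle and 5 DCS libraries, and of HT mice 6 vehicle and 6 DCS libraries. No brain region is given in the labels, and they do not say whether the libraries of a group came from separate mice, so each p-value measures the spread between these libraries, which may be technical. Values are normalised read counts, that is reads per gene after the authors' scaling between libraries. Library totals lay between 32.3 and 33.5 M reads after scaling, and the estimated depth before it between 25.6 and 37.5 M reads. The 10 neuron markers were read in every library, as were the markers of vessels, meninges, choroid plexus and glia described further on. In bulk tissue, fewer cells of a type and less RNA per cell cannot be told apart.

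Collagen VI is an extracellular matrix protein. One α1, one α2 and one α3 chain fold into a heterotrimer, and trimers join into dimers, tetramers and then beaded microfibrils that lie between basement membranes and the fibrillar matrix. In the brain it is known from the meninges and the walls of blood vessels, where fibroblasts, pericytes and smooth muscle cells make it. The α3 chain carries a C-terminal piece that is cut off and is known as endotrophin. The genes Col6a4, Col6a5 and Col6a6 encode chains that resemble α3.

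Col6a1 (ENSMUSG00000001119) lies on GRCm38 chromosome 10 from 76708792 to 76726168 on the minus strand, and its longest annotated transcript has 35 exons and 4100 bases. Col6a2 (ENSMUSG00000020241) lies on the same strand from 76595762 to 76623630, with 27 exons and 4912 bases in the longest transcript. The 2 genes are separated by 85161 bases. Col6a3 (ENSMUSG00000048126) lies on chromosome 1 from 90765923 to 90843971, again on the minus strand, with 44 exons and 10106 bases in the longest of 8 transcripts. All 3 are protein coding, and none overlaps another gene that the table measures.

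The windows around the annotated starts are printed because Col6a1 and Col6a2 sit side by side and encode partners of 1 trimer, and yet differed in level and in pattern below. Each window runs from 250 bases before to 50 bases after a RefSeq start on GRCm38.p6 and reads 5′ to 3′ on the minus strand: chr10:76725995-76726294 for Col6a1, chr10:76623355-76623654 for the first of 2 Col6a2 starts, and chr1:90843922-90844221 for Col6a3. Capitals mark matches on either strand to 5 short patterns that were searched: TATAAA (the TATA box), CCAAT (the box bound by the factor NF-Y), GGGCGG (the GC box bound by Sp1), TGANTCA (the AP-1 pattern, which reads the same on both strands) and CAGAC (the Smad pattern).
Col6a1: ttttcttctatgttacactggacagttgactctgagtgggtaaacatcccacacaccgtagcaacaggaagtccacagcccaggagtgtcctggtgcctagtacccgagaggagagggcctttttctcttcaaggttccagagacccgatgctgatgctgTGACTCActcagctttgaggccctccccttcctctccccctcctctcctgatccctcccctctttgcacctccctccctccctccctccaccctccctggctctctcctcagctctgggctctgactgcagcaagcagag
Col6a2: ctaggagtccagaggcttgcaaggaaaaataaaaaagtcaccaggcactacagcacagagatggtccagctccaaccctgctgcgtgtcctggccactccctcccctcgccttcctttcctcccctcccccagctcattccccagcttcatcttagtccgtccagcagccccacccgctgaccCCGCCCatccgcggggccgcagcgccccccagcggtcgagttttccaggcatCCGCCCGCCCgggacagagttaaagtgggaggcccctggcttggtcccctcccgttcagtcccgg
Col6a3: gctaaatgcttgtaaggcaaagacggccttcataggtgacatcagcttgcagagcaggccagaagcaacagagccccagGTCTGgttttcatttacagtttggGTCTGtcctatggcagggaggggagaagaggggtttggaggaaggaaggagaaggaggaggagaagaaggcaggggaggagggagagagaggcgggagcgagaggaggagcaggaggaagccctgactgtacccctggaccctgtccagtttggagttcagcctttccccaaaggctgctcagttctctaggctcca

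The 3 windows shared no pattern. Col6a1 held 1 TGANTCA match, beginning 90 bases before the start, a pattern present in 7.81% of the 32851 mouse promoters in the RefSeq table. The first Col6a2 window held 3 GGGCGG matches on the opposite strand, 2 of them overlapping each other, against 35.66% of promoters with at least 1. Col6a3 held 2 CAGAC matches on the opposite strand, a pattern found in 49.59% of promoters. The patterns TATAAA, held by 13.62% of promoters, and CCAAT, held by 37.41%, had no match in these windows. The share of G and C was 57.3% in Col6a1, 64.3% in Col6a2 and 56.3% in Col6a3, against a median of 52.7% over all promoters. CpG pairs numbered 3, 16 and 3. The second Col6a2 start coincides with the 5′ boundary of the annotated gene, at 76623630, and its window held 6 CpG pairs, 1 GGGCGG match and 1 CAGAC match. A match is a short string of letters and does not show that a factor binds there.

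Per length of transcript the 3 partner chains stood far apart. Col6a1 had 597 ± 39.9 normalised reads per kb of its longest transcript (SD, n = 23 libraries), Col6a2 167 ± 11.2 and Col6a3 22.9 ± 6.17. The order Col6a1, Col6a2, Col6a3 held in 23 of 23 libraries. Col6a4 (18.2 ± 7.27 per kb) was under Col6a3 in only 15 of 23 libraries, so these neighbours in the order did not separate. Col6a5 (5.05 ± 2.77 per kb) was under Col6a4 in 23 of 23, and Col6a6 (3.83 ± 0.92 per kb) was under Col6a5 in 15 of 23. Per kb of coding sequence, a scale added after the data were seen, the means were 795 for Col6a1, 265 for Col6a2 and 23.5 for Col6a3. On that scale Col6a6 was under Col6a5 in 12 of 23 libraries.

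**Figure D1:**
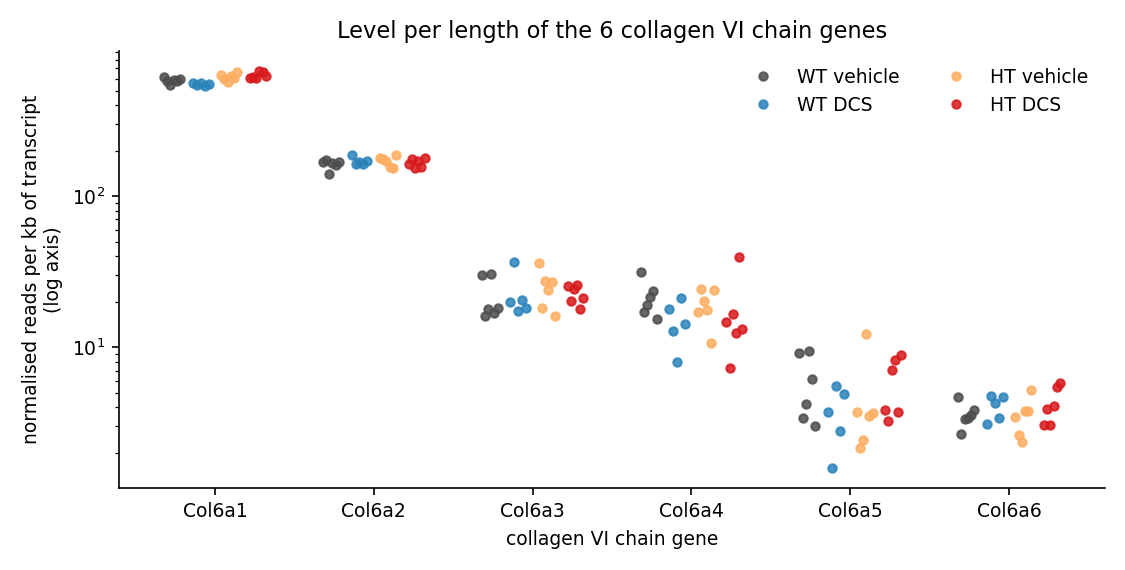
Normalised reads per kb of the longest annotated transcript (log axis) for the 6 collagen VI chain genes, with 1 point per library coloured by group. Col6a1 and Col6a2 form separate bands in all 4 groups, while Col6a3 and Col6a4 overlap.

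Col6a1 exceeded Col6a2 by a ratio of 3.58 ± 0.31 per kb over the 23 libraries. WT vehicle had a ratio of 3.598 ± 0.19 (6 libraries) and WT DCS of 3.23 ± 0.14 (5 libraries). In the HT groups it was 3.63 ± 0.29 with vehicle and 3.81 ± 0.31 with DCS (6 libraries each). The 5 WT DCS ratios ran from 2.98 to 3.32 and the 6 HT DCS ratios from 3.48 to 4.29, so these ranges did not meet. That separation follows in part from the choice of Col6a1 and is a description. The ratio of Col6a2 to Col6a3 was 7.78 ± 1.99 per kb over all libraries, from 4.45 in WT DCS replicate 2 to 11.6 in HT vehicle replicate 6.

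Col6a1, the chain on which the choice rested, varied little within groups, which the choice itself favours in the DCS libraries. In WT vehicle its normalised read count had a lowest value of 2236, a median of 2385 and a highest value of 2515. The 5 WT DCS libraries held 2298, 2222, 2305, 2196 and 2248 in the order of their replicate numbers. All 5 lay under the WT vehicle mean, and 2 of them under the lowest WT vehicle library.

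HT vehicle ran from 2333 over a median of 2519 to 2711, and HT DCS from 2467 over a median of 2546 to 2777. The 2 HT groups overlapped over most of their range. Every HT DCS library lay above every WT DCS library, while HT vehicle overlapped WT vehicle. With vehicle the means were 2389 ± 95.9 in WT and 2519 ± 131 in HT (SD, n = 6 each). With DCS they were 2254 ± 47.6 in WT (n = 5) and 2589.9 ± 133 in HT (n = 6).

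Col6a2, the partner in a nearby gene, did not show that order. Its WT vehicle libraries ran from 687 over a median of 818 to 855, and the WT DCS libraries held 923, 801, 831, 801 and 833. HT vehicle ran from 755 over 847 to 914, and HT DCS from 759 over 821 to 882. All 4 groups overlapped, with means of 798 ± 58.4 in WT vehicle, 838 ± 50.1 in WT DCS, 834 ± 64.9 in HT vehicle and 818 ± 51.0 in HT DCS.

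Col6a3, which encodes the long chain that carries endotrophin, spread the most of the 3. In WT vehicle it ran from 162 over a median of 181 to 309, and the WT DCS libraries held 202, 370.2, 175, 209 and 184. HT vehicle ran from 162 over 257 to 367, and HT DCS from 181 over 231 to 259.8. Each group but HT DCS held 1 or 2 libraries above 300 (WT vehicle replicates 1 and 4, WT DCS replicate 2, HT vehicle replicate 1), and all 4 groups overlapped. The means were 218 ± 68.4 in WT vehicle, 228 ± 80.5 in WT DCS, 251 ± 74.1 in HT vehicle and 228 ± 32.2 in HT DCS.

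**Figure D2:**
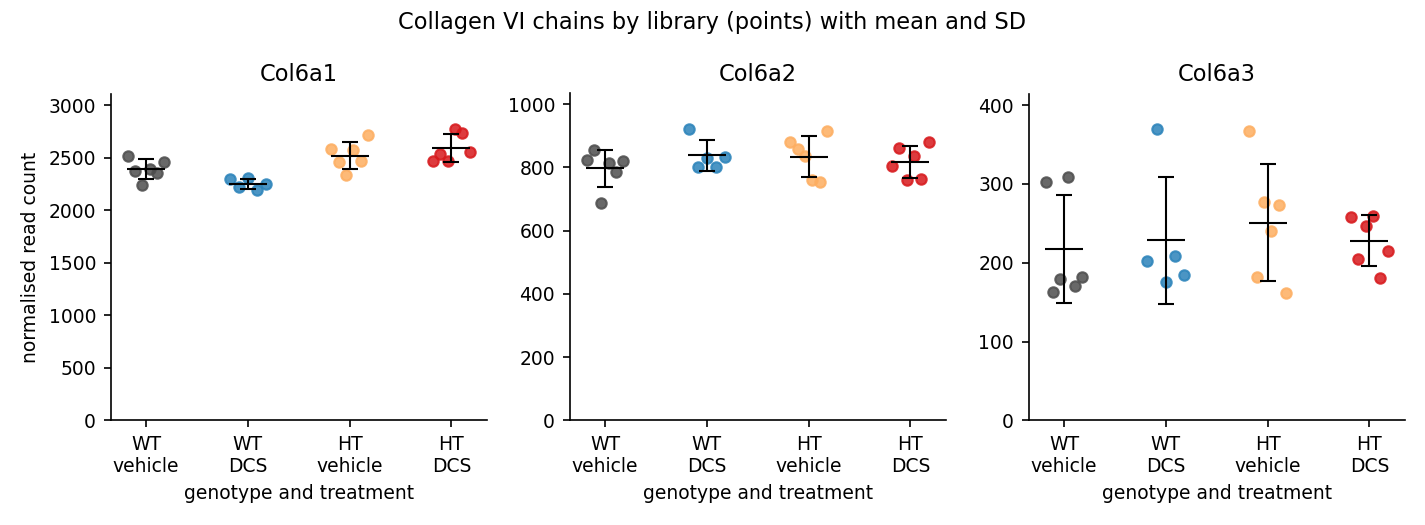
Normalised read counts of Col6a1, Col6a2 and Col6a3 in each of the 23 libraries (points), with group means and SD (bars), by genotype and treatment; each panel has its own linear axis from 0. The 5 WT DCS points of Col6a1 lie below all 6 HT DCS points, whereas the groups of Col6a2 and Col6a3 overlap.

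Without DCS, the means of the genotypes share no library with the contrast that led to the choice. Their comparison is the one test open to all 3 chains, though its estimate of spread also drew on the DCS libraries. None of the 3 passed it, nor did any with the vehicle groups fitted alone (limma, adjusted p = 0.99701 for each). Each had a higher mean in HT vehicle. Col6a1 was 5.45% higher, a log2 difference of 0.08 ± 0.04 (SE) with a 95% interval from -0.0016 to 0.15, and 5 of 6 HT vehicle libraries lay above the WT vehicle mean (limma, adjusted p = 0.9991). Col6a2 differed by 0.06 ± 0.06, from -0.05 to 0.18, with 4 of 6 libraries above (limma, adjusted p = 0.9991). Col6a3 differed by 0.20 ± 0.21, from -0.23 to 0.63, again with 4 of 6 above (limma, adjusted p = 0.9991). Without HT vehicle replicate 1 the Col6a3 difference was 0.08, and without HT vehicle replicate 6 it was 0.32. Without WT vehicle replicate 3 the Col6a2 difference was 0.02. Over all genes limma called 0 of 17256, or 0%, between HT vehicle and WT vehicle, with 729 at an unadjusted p under 0.05.

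DCS against vehicle within a genotype was tested for Col6a2 and Col6a3 only, because Col6a1 was chosen on the DCS libraries. In WT mice Col6a2 differed by 0.07 ± 0.06 on the log2 scale, from -0.05 to 0.20, and all 5 WT DCS libraries lay above the WT vehicle mean (limma, adjusted p = 1). Col6a3 differed by 0.06 ± 0.22, from -0.39 to 0.52 (limma, adjusted p = 1), and 1 of 5 libraries lay above the WT vehicle mean. Without WT DCS replicate 2 the Col6a3 difference turned to -0.12. In HT mice Col6a2 differed by -0.03 ± 0.06, from -0.14 to 0.09, and Col6a3 by -0.10 ± 0.21, from -0.53 to 0.33 (limma, adjusted p = 0.9889 for each). Limma called 0 of 17256 genes in either contrast, with 497 at an unadjusted p under 0.05 in WT and 828 in HT.

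For Col6a1 the same contrasts are a description. The SEs and intervals given for it here take no account of its choice on the DCS libraries, so none of them serves as a test. The mean of Col6a1 was 5.67% lower in WT DCS than in WT vehicle, a log2 difference of -0.08 ± 0.04 with a 95% interval from -0.16 to -0.0022. In HT mice it was 2.80% higher under DCS, by 0.04 ± 0.04, from -0.04 to 0.12. Between the genotypes under DCS it was 14.9% higher in HT, by 0.20 ± 0.04, from 0.12 to 0.28. By arithmetic that 0.20 is the sum of 0.08 between the vehicle groups, 0.08 by which WT DCS lay under WT vehicle, and 0.04 by which HT DCS lay above HT vehicle. The lower WT mean and the higher HT mean under DCS together make an interaction value of 0.12 ± 0.05, from 0.01 to 0.24.

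Under DCS the partner chains had mean differences between genotypes nearer 0 than Col6a1, with wider intervals. In HT DCS Col6a2 differed from WT DCS by -0.04 ± 0.06, with an interval from -0.16 to 0.09. Col6a3 differed by 0.04 ± 0.22, from -0.41 to 0.49, and without WT DCS replicate 2 it was 0.23. Col6a1's 0.20 is the value that led to the choice, so these intervals cannot be tested against it. Whether Col6a2 or Col6a3 differed from Col6a1 in this contrast was not tested. Of the 3, Col6a1 alone had groups that did not overlap. Over all genes, 29 of 17256 (0.168%) had every HT DCS library above every WT DCS library, and 42 (0.243%) had every one below. Since this contrast led to the choice, Col6a1's place among the 29 is no support for it. Limma called 0 of 17256 genes here, with 1302 at an unadjusted p under 0.05, and 0 in the interaction, with 756.

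**Figure D3:**
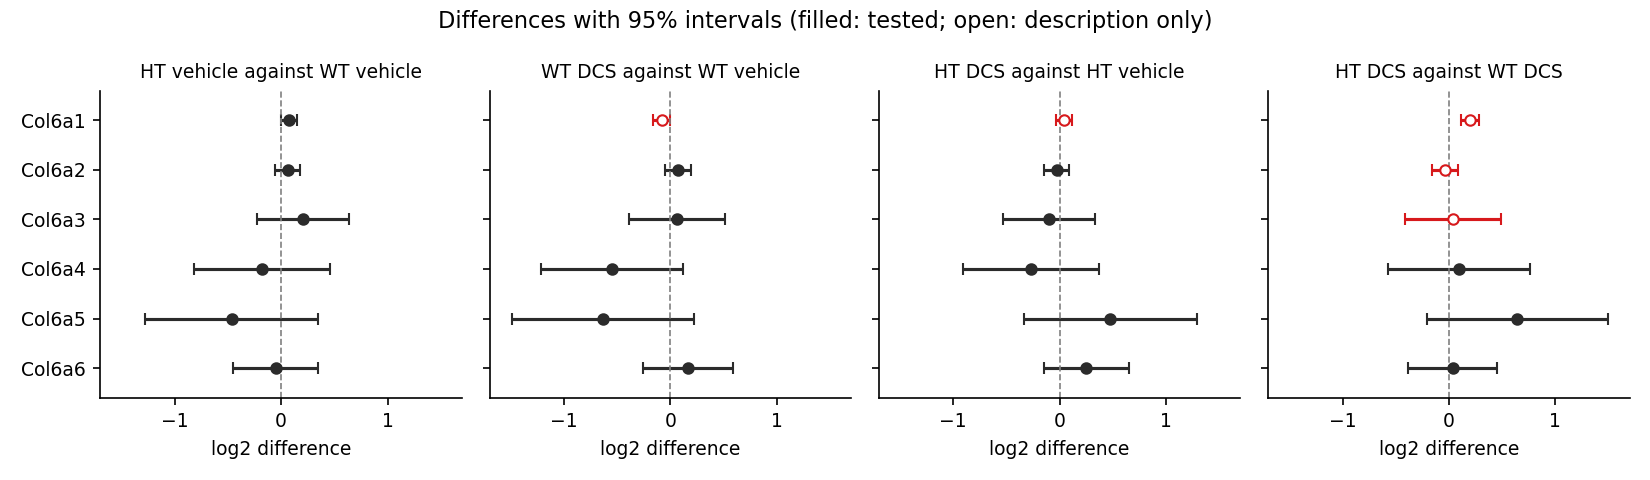
Log2 differences with 95% intervals for the 6 collagen VI chain genes in 4 contrasts, with filled points for tested values and open points for descriptions only. The intervals of Col6a3, Col6a4, Col6a5 and Col6a6 are several times wider than those of Col6a1 and Col6a2.

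The other 3 chain genes were tested in every contrast, the interaction included, and none was called. Col6a4 had means of 157 ± 41.8 with vehicle and 109 ± 36.9 with DCS in WT, and of 139 ± 37.3 and 128 ± 84.1 in HT. It had log2 differences from -0.55 (WT DCS against WT vehicle) to 0.10 (HT DCS against WT DCS). Col6a5 had group means from 34.3 to 54.5 and log2 differences from -0.63 to 0.64 in the same contrasts, and its interaction value of 1.11 ± 0.57, from -0.07 to 2.29, was the largest of the 6 chain genes (limma, adjusted p = 0.98417). Col6a6 had group means from 30.9 to 37.0 and differences from -0.05 to 0.25.

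The chains differed in how much libraries of 1 group varied. The SD within groups, on the log2 scale, was 0.06 for Col6a1, 0.10 for Col6a2 and 0.38 for Col6a3. For Col6a1 this was under the median of 0.07 among 1519 genes of like mean. That SD includes the DCS libraries, and a choice by group difference favours a small spread in them, so this place is a description. For Col6a3 the SD within groups exceeded that of 98.3% of 1024 genes of like mean, whose median was 0.15. Col6a4 and Col6a5 varied more widely than Col6a3, with SDs within groups of 0.55 and 0.73. Each was larger than in over 97% of genes of like mean, while Col6a6 (0.34) was at the median of its peers.

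Whether the chains varied together between libraries was asked on deviations from the group means, which leave out the contrasts above. Col6a1 and Col6a2 gave a Pearson r of 0.40 (permutation p = 0.0896, adjusted p = 0.459) and a Spearman rho of 0.41 (permutation p = 0.0823, adjusted p = 0.544) over 23 libraries. Without the 2 libraries farthest out in Col6a1 (HT DCS replicate 4 and HT vehicle replicate 6) r was 0.30. Col6a1 and Col6a3 gave r = -0.08 and rho = -0.08 (permutation p = 0.726 and 0.728, adjusted 0.845 and 0.91), and r was 0.02 without the same 2 libraries. Col6a2 and Col6a3 gave r = -0.10 and rho = -0.15 (permutation p = 0.682 and 0.52, adjusted 0.845 and 0.91), and r was -0.17 without its 2 farthest libraries. These 3 were among 30 relations computed, and none of the 30 passed after adjustment. With the mean of replicate numbers 1 to 3 and of numbers 4 to 6 taken out as well, r was 0.54 for Col6a1 with Col6a2, 0.0018 for Col6a1 with Col6a3 and -0.19 for Col6a2 with Col6a3.

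**Figure D4:**
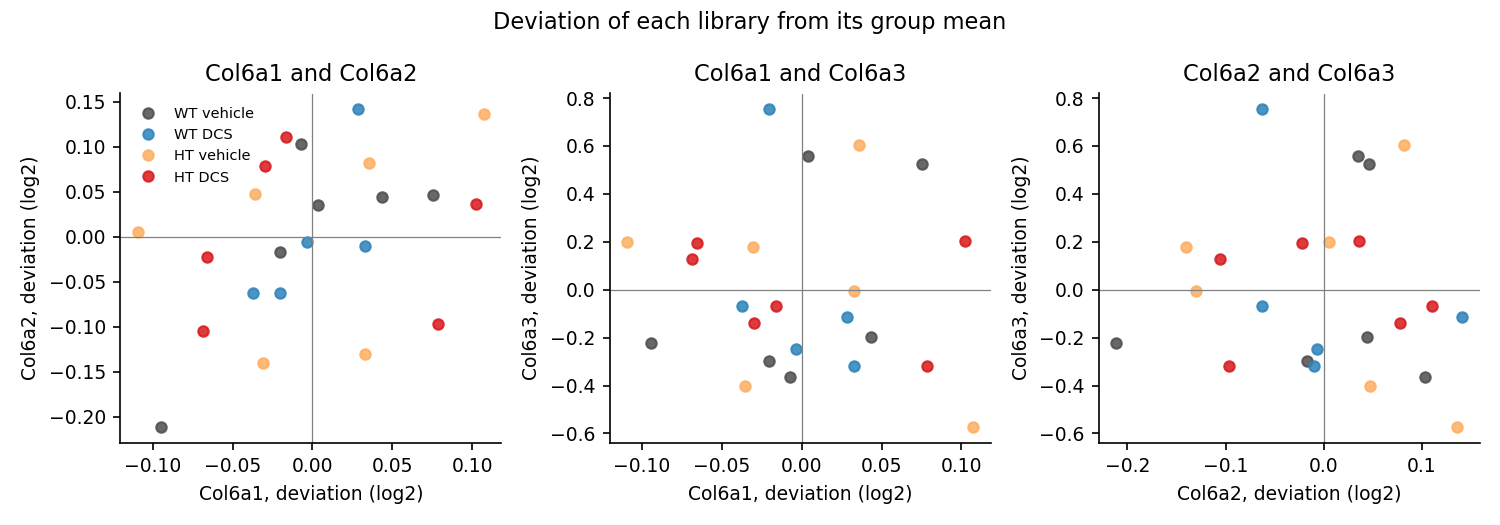
Deviation of each of the 23 libraries from its group mean (log2) for each pair of the 3 chains, with points coloured by group. Col6a1 and Col6a2 tend to deviate in the same direction (r = 0.40, not passing the test), and Col6a3 shows no common direction with either.

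The genes whose deviations were most like those of a chain are given by r and rho over the 23 libraries, which share library depth and tissue makeup, with no p. For Col6a1 they were Ehmt2 (r = 0.82, rho = 0.77), a histone H3 lysine methyltransferase gene, Tspoap1 (0.79, 0.74), Begain (0.79, 0.68), a postsynaptic density protein gene, Ttyh1 (0.77, 0.74) and Kif17 (0.76, 0.73), a kinesin gene. For Col6a2 they were Rassf9 (0.85, 0.78), Col1a2 (0.77, 0.75), a chain of fibrillar collagen I, Psmd3 (0.73, 0.68), a proteasome subunit gene, Gja4 (0.72, 0.61), the connexin gene of arterial endothelium, and Slc35b1 (0.72, 0.70). For Col6a3 they were Cdk18 (0.75, 0.63), Npc1l1 (0.69, 0.75), Ogdh (0.67, 0.64), a mitochondrial dehydrogenase gene, A3galt2 (0.67, 0.53) and Crip1 (0.67, 0.66). The 3 lists have no gene in common. Among all tested genes, 1% exceeded an r of 0.58 with Col6a1, 0.54 with Col6a2 and 0.49 with Col6a3. Col6a2 ranked 1162nd of 17255 by its likeness to Col6a1, behind Col6a6, which ranked 82nd (r = 0.63).

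Marker lists of the cell types that could hold collagen VI were set beside the chains as list means per library. Col6a2 had its highest r with the 14 markers of meningeal and perivascular fibroblasts, at 0.54 (permutation p = 0.0126, adjusted p = 0.378) with rho 0.50 (permutation p = 0.0218, adjusted p = 0.543). Without the 2 farthest libraries r was 0.50, and with the means of replicate numbers 1 to 3 and 4 to 6 removed also 0.50. All 14 genes had a positive r with Col6a2, with a median of 0.34, against a median of -0.0033 over all tested genes. This was not particular to fibroblast markers. A positive r was found for 10 of 10 microglia markers (median 0.19) and 11 of 12 pericyte and smooth muscle markers (0.18). So it was for 11 of 12 matrix partners described further on (0.35), against 3 of 10 neuron markers (-0.16). Genes of 1 list can vary together, so these are not separate results. With endothelial markers Col6a2 had r = 0.37 and rho = 0.46 (permutation p = 0.0995 and 0.0424, adjusted 0.459 and 0.543), and with pericyte and smooth muscle markers r = 0.19 and rho = 0.24 (adjusted permutation p = 0.845 and 0.895). Col6a1 had r = -0.11 with fibroblast, -0.23 with endothelial and -0.14 with pericyte and smooth muscle markers (adjusted permutation p = 0.845, 0.737 and 0.845). The last turned to 0.07 without the 2 farthest libraries and to 0.02 with the means of the replicate numbers removed. Col6a3 had r = 0.12, 0.07 and 0.15 with the same lists (adjusted permutation p = 0.845 for each).

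Col6a1 had its lowest r with the 12 oligodendrocyte and myelin markers, at -0.43 with rho -0.46 (permutation p = 0.0867 and 0.0543, adjusted 0.459 and 0.543). All 12 genes had a negative r with Col6a1, with a median of -0.40. Once the means of replicate numbers 1 to 3 and 4 to 6 were removed, r was -0.0093, so the relation did not hold within those sets of libraries. Col6a2 had r = -0.23 and rho = -0.11 with the same list (permutation p = 0.313 and 0.646, adjusted 0.737 and 0.91), and 11 of 12 genes had a negative r. That r was -0.56 with the means of the replicate numbers removed and 0.0069 without the 2 farthest libraries. With Col6a3 all 12 myelin genes had a positive r, with a median of 0.30. A negative r with Col6a1 was not particular to myelin. All 12 choroid plexus markers had one too, with a median of -0.28. Their list mean gave r = -0.37 and rho = -0.27 with Col6a1 (permutation p = 0.0881 and 0.241, adjusted 0.459 and 0.805). With the means of the replicate numbers removed that r was -0.12.

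**Figure D5:**
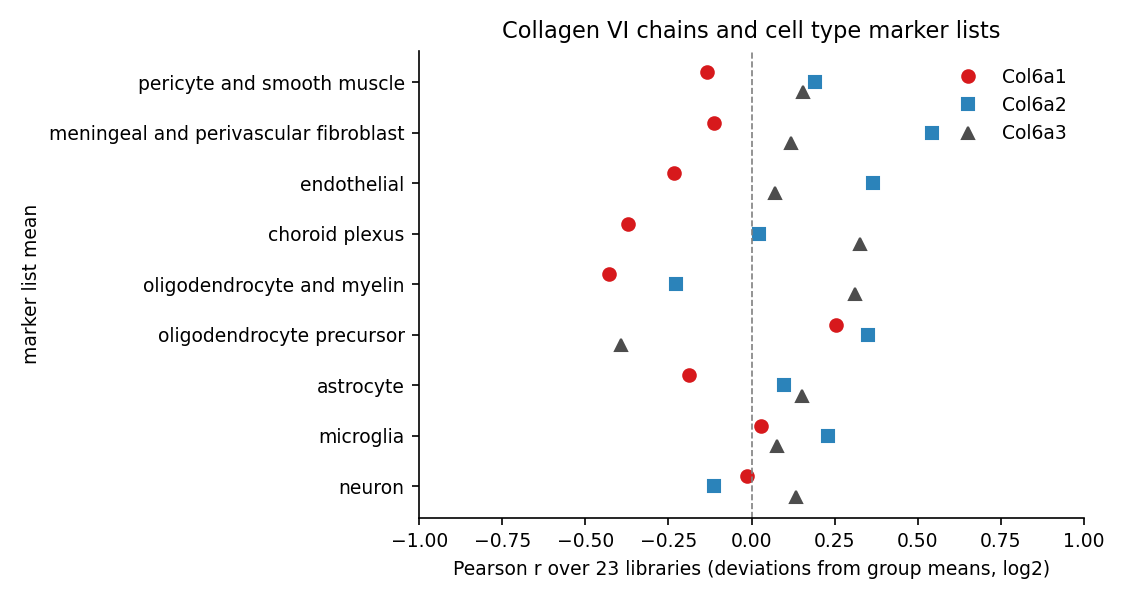
Pearson r over 23 libraries between each chain and the mean of each of 9 cell type marker lists, on deviations from the group means (log2). The r of Col6a2 with meningeal and perivascular fibroblast markers (0.54) is the highest and that of Col6a1 with myelin markers (-0.43) the lowest, and none of the 27 passed after adjustment.

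Levels of cell type markers were set beside the groups in which Col6a1 was described. In HT DCS against WT DCS, 0 of 12 myelin markers had a higher mean, with a median log2 difference of -0.24, and their summed normalised reads ran from 325260 to 503953 in HT DCS and from 443599 to 521690 in WT DCS. In the same contrast 11 of 12 endothelial markers had a higher mean (median 0.06), with sums from 8972 to 10098 in HT DCS and from 8408 to 9893 in WT DCS. Of the pericyte and smooth muscle markers 10 of 12 were higher (median 0.11), with sums from 6776 to 8794 and from 6538 to 8358. Of the fibroblast markers 4 of 14 were higher (median -0.02), with sums from 7648 to 10712 and from 8319 to 10168. Between HT vehicle and WT vehicle 12 of 14 fibroblast (median 0.13), 10 of 12 pericyte (0.19), 11 of 12 endothelial (0.06), 10 of 12 choroid plexus (0.21), 10 of 10 microglia (0.12) and 0 of 12 myelin markers (-0.11) had a higher mean. Under DCS 9 of 10 microglia markers (median 0.13) and 4 of 12 choroid plexus markers (-0.11) had a higher mean in HT than in WT. Limma called 0 genes of any of these lists. At an unadjusted p under 0.05 were 10 of the 12 myelin markers in HT DCS against WT DCS, beside 1302 of all 17256 genes. In HT vehicle against WT vehicle 4 of the 12 choroid plexus markers were, beside 729 of all 17256 genes. Markers of 1 cell type can vary together, so these are not separate results. No marker of these lists was at 0 in any library. The part of cell makeup in the differences of the chains was not tested.

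Collagen VI binds cells through integrins, the proteoglycan NG2 (Cspg4) and the anthrax toxin receptors, of which Antxr2 takes up collagen VI and Antxr1 binds the endotrophin end of α3. Of 10 receptor genes 0 were called higher and 0 lower in any contrast (limma, 0% of all genes called). Between HT vehicle and WT vehicle 7 of 10 had a higher mean, with a median log2 difference of 0.04 against -0.00045 over all tested genes. Antxr2 had 41.1 normalised reads in WT vehicle and 53.3 in HT vehicle, a log2 difference of 0.36 ± 0.13 (limma, adjusted p = 0.9991). In WT DCS it had 52.7 and in HT DCS 55.7. Cspg4 had 1023 in HT vehicle and 916 in WT vehicle (0.16 ± 0.06, limma, adjusted p = 0.9991). Antxr1 held group means from 558 to 588. Itgb1, the β1 integrin subunit shared by the collagen receptors, had 3139 in HT DCS and 3011 in WT DCS (0.06 ± 0.03, limma, adjusted p = 0.7051). Itga1, the α1 subunit, had 540.1 and 467 (0.20 ± 0.09, limma, adjusted p = 0.64682), and Ddr1, a collagen receptor kinase, 3601 and 4001 (-0.16 ± 0.05, limma, adjusted p = 0.59618).

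Collagen chains need prolyl and lysyl hydroxylation, folding on chaperones and export before they assemble. Of 16 genes for these steps 0 were called in any contrast (limma). Between HT vehicle and WT vehicle 11 of 16 had a higher mean (median 0.03), as did 11 of 16 between HT DCS and WT DCS (median 0.02), while 6 of 16 did between HT DCS and HT vehicle (median -0.02). P4hb, the protein disulphide isomerase subunit of prolyl hydroxylase, stayed between group means of 3796 and 3892. Serpinh1, the collagen chaperone HSP47, had 873 in WT vehicle, 989 in WT DCS, 1005 in HT vehicle and 916 in HT DCS. Plod3, a lysyl hydroxylase that also glycosylates collagen, had 971 in HT vehicle and 1104 in HT DCS (0.19 ± 0.06, limma, adjusted p = 0.97328). Mmp14, a membrane-bound collagenase, had 558 in HT vehicle and 484 in WT vehicle (0.20 ± 0.09, limma, adjusted p = 0.9991).

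The matrix partners around collagen VI had 12 measured genes of 13 listed, with Matn3 not matched in the table, and 0 were called in any contrast (limma). Between HT DCS and WT DCS 8 of 12 had a higher mean, with a median log2 difference of 0.08 against -0.00032 over all tested genes. Those with the highest levels were Fn1, fibronectin, at 3735 in HT DCS and 3286 in WT DCS (0.18 ± 0.08, limma, adjusted p = 0.64682), Nid1, the basement membrane linker nidogen, at 1518 and 1329 (0.19 ± 0.10, limma, adjusted p = 0.67775), and Hspg2, perlecan, at 1188 and 1027 (0.21 ± 0.09, limma, adjusted p = 0.64113). Between HT vehicle and WT vehicle 10 of 12 were higher, with a median of 0.03. With vehicle Fn1 had 3485 in WT and 3521 in HT, and Hspg2 1117 and 1138. The receptor gene Itga1 had 491 and 511 with vehicle. Fn1, Hspg2 and Itga1 thus had, like Col6a1, their lowest group mean in WT DCS and their highest in HT DCS. They were picked for this after their values were known, and how many other genes share that order was not counted. The resemblance was not tested.

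Of 11 other collagens made by fibroblasts and vessels 0 were called in any contrast (limma), 10 of 11 had a higher mean in HT vehicle than in WT vehicle (median 0.13) and 6 of 11 in HT DCS than in WT DCS (median 0.03). Col4a1 and Col4a2, the paired chains of basement membrane collagen IV, had 3147 and 3217 in HT vehicle and 2993 and 2914 in WT vehicle (0.06 ± 0.08 and 0.13 ± 0.06, limma, adjusted p = 0.9991 for each). Col1a2, the highest among the fibrillar chains, had 1155 and 1048 (0.16 ± 0.14, limma, adjusted p = 0.9991). Bgn, Dcn, Lum, Col1a1, Col1a2 and Col3a1 also stand in the fibroblast marker list, and Cspg4 and Matn4 in that of oligodendrocyte precursors, so these lists are not separate counts.

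TGF-beta signalling is known to raise collagen VI transcription in fibroblasts. Of its 13 genes 0 were called in any contrast (limma). A higher mean was found for 9 of 13 in HT vehicle against WT vehicle (median 0.04), 9 of 13 in WT DCS against WT vehicle (median 0.03), 4 of 13 in HT DCS against HT vehicle (median -0.04) and 7 of 13 in HT DCS against WT DCS (median 0.00077). The signal transducers Smad2, Smad3 and Smad4, the members with the highest levels, had group means from 1186 to 1228, from 1416 to 1473 and from 1075 to 1156. Ccn2, a matricellular target of the pathway named after its values were seen, had 967 in HT vehicle and 793 in WT vehicle (0.29 ± 0.06), the smallest adjusted p of any gene in that contrast (limma, adjusted p = 0.53623). Smad7, the inhibitory Smad, also named afterwards, had 871 in WT DCS and 734 in HT DCS (-0.25 ± 0.06, limma, adjusted p = 0.45476).

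Values of the genes beside the chains are given as a description, and a shared shift of the locus was not tested. Within 200 kb of Col6a1 and Col6a2 the tested neighbours were Pcnt, Ybey, Mcm3ap, Lss and Pcbp3, and within 200 kb of Col6a3 they were Cops8, Mlph and Lrrfip1. None of the 8 was called in any contrast (limma). Between HT DCS and WT DCS the 5 neighbours on chromosome 10 differed by 0.02 to 0.06 on the log2 scale. The 0.20 of Col6a1 led to its choice and is no measure for them. Lrrfip1 had 1575 normalised reads in WT DCS and 1713 in HT DCS (0.12 ± 0.04, limma, adjusted p = 0.61261).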

How the data were processed

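The deposited table gives a signal for 18848 genes in 23 libraries: read counts that the authors scaled between libraries, as its decimal values and near-equal totals show. Salmon 1.1.0, DESeq2 1.26.0 and R 3.6.2 and the build GRCm38 are named in the submitters' processing notes without their roles. Per the labels' protocols the mRNA library kit was stranded. Scaling hides differences in total RNA. Only 58.2% to 77.6% of low values lay within 0.15 of a whole multiple of 1 read, so whole reads were not recovered and no count test was run. Each of the 23 columns matched 1 sample.

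Values were analysed as log2(value + 1) with limma 3.58.1 in R 4.3.3, with 1 coefficient per group over all 23 libraries, a mean trend and robust moderation. Tests are two-sided, at a Benjamini-Hochberg adjusted p of 0.05 among 17256 genes whose mean was 10 or more. Differences on this scale understate changes of low genes. The fit was also run on simulated data, the outcome of which is not given here. Relations used 100000 permutations within groups, two-sided, with adjustment over 30 relations.

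The members and the gene lists were chosen with earlier results of these data known. Named genes are the 6 chains, any receptor or assembly gene, up to 3 genes of each other list by smallest p among those called and then by highest mean, the 5 genes most like each chain (leaving out predicted gene models) and neighbours within 200 kb. Genes named outside it are marked as such. Lengths and positions are from GENCODE M21 on GRCm38, and starts from RefSeq. Alternatives were 2 other pseudocounts, 2 other filters, plain moderation, 2 other scalings, only the groups compared, replicate blocks, array weights and leaving out each library.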

Additional observations from a re-analysis of the deposited data

Results flagged for a closer look

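In 4 of 24 groups looked at (6 chain genes in 4 groups), 1 library stood far above the others. The gap was a larger share of the group's range than Dixon's 95% critical value. For normally distributed values chance alone gives about 1 in 20. The rule was applied to values before the log2 step, which need not be normal, so that rate may not hold here. Col6a2 had 923 normalised reads in WT DCS replicate 1, where the next highest library had 833. Col6a3 had 370.2 in WT DCS replicate 2, with the next at 209, and the Col6a3 difference of WT DCS from WT vehicle turned from 0.06 to -0.12 without that library. Col6a4 had 293 in HT DCS replicate 5, with the next at 123. Col6a5 had 113 in HT vehicle replicate 4, with the next at 34.4.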

How the results depend on the processing

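No chain changed its call under any of the alternatives run. Leaving out each library in turn, the genes called numbered 0 to 1 between HT DCS and HT vehicle (Ehd1 without HT DCS replicate 4 or without HT vehicle replicate 1) and 0 to 1 between HT DCS and WT DCS (Syt2 without HT vehicle replicate 6, a library outside both of those groups); neither gene is in the lists used here. Over the same fits the Col6a1 difference between HT vehicle and WT vehicle ran from 0.05 to 0.10, that of Col6a2 from 0.02 to 0.09 and that of Col6a3 from 0.08 to 0.32 (limma, adjusted p from 0.76278 to 0.99995 for Col6a1, from 0.86248 for Col6a2 and from 0.85784 for Col6a3 over all alternatives). Signs turned as follows. The Col6a3 difference of HT DCS from HT vehicle ran from -0.21 to 0.023, being above 0 only without HT vehicle replicate 1. That of Col6a2 ran from -0.055 to 0.00044, above 0 only without HT vehicle replicate 6. The Col6a3 difference of WT DCS from WT vehicle ran from -0.12 (without WT DCS replicate 2) to 0.18 and was -0.0083 without WT vehicle replicate 2. The described Col6a1 difference between HT DCS and WT DCS ran from 0.18 to 0.21, and from 0.19 to 0.20 under the alternatives that keep all libraries. The described Col6a2 and Col6a3 values in that contrast crossed 0, from -0.06 to 0.00018 and from -0.04 to 0.23. Removing libraries changes both the means and the estimate of spread.

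Libraries with the same number in their titles deviated together with r from -0.07 to 0.30 in the 4 contrasts. This r was over 0.1 in 3 of 5 pairs of WT DCS with WT vehicle and in 0 pairs elsewhere. Such values cannot settle whether the numbers pair samples, and the labels do not say. With the replicate number as a replicate block 0 genes were called, and the genotype differences without DCS keep their values by construction (limma, adjusted p = 0.9351 for Col6a1, 0.98049 for Col6a2 and 0.98716 for Col6a3). With that block the Col6a3 difference of WT DCS from WT vehicle was 0.0087 in place of 0.06, and that of HT DCS from WT DCS 0.10 in place of 0.04. WT DCS replicate 5 carries the number 6 in its description, and the block with that numbering called 0 genes too. Other scalings left the median difference of all genes between -0.0015 and 0.00079. Depth limits Col6a5 and Col6a6 most, which have the lowest values of the 6 chain genes. Counting alone would give an SD of about 14.6% of the mean for Col6a5 and 17.2% for Col6a6. Over the 23 libraries the observed SD was 54.9% and 24.0% of the mean, so most of the spread of Col6a5 was not from counting.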
